A study of Caenorhabditis elegans with 2 samples.

Results

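Of 30000 candidate regions for the zinc-finger transcription factor SNAI-1 in embryos of the nematode Caenorhabditis elegans, 1252 had their summit at a gene that the genome annotation calls ncRNA, a class for non-coding RNAs that fall under no named small RNA type. A region was counted when its summit lay inside such a gene or within 100 bp of it and more than 500 bp from every tRNA, snoRNA, snRNA and miRNA gene. In all, 1521 regions had a summit at an ncRNA gene before that distance was applied. Of the 1252 members, 44 were among the 495 peaks that the authors kept after filtering on the irreproducible discovery rate (IDR), a measure of agreement between replicates, 13 were outside that list but overlapped by one of its peaks, and 1195 were overlapped by none. The 44 are called IDR members and the 1195 the other members.

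The occupancy map came from chromatin immunoprecipitation and sequencing (ChIP-seq) of whole late embryos of strain OP698, with 2 biological replicates in 1 group and no second condition. The strain carries the integrated transgene wgIs698, which makes SNAI-1 (K02D7.2) with a C-terminal tag, on the mutation unc-119(tm4063) III, and both replicates share this genotype. Embryos of mixed sex were taken 5 hours after synchronization by bleaching, chromatin was sheared by sonication, and an antibody against GFP was used. The labels call the tag eGFP in one field and GFP-FLAG in another, and 1 field names the target where the antibody would stand. The protein measured is therefore a tagged transgene product in a mixture of all embryonic cell types, and the labels do not say which cells made it.

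The ncRNA class mixes RNAs of known function with many short predicted transcripts. Among the known ones are rpr-1, the RNA of RNase P, which cuts the leader from precursor tRNAs, and mrpr-1, the RNA of the related enzyme RNase MRP, which acts in ribosomal RNA processing. The srpr genes encode the RNA of the signal recognition particle, which brings ribosomes making secreted proteins to the endoplasmic reticulum. In animals these RNAs are made by RNA polymerase III, the enzyme that also makes tRNAs and that commonly stops at a run of T in the coding strand. Factors of the Snail family bind E-box sequences such as CAGGTG.

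The DNA under strong summits is shown for 7 IDR members, because these windows hold what the later counts describe: the start of a structural RNA gene, a GC-rich gene body, or a summit beside the gene. Each window runs 50 bp to each side of the summit, from the RefSeq sequence of the assembly that ce11 stands for, written 5′ to 3′ on the strand of the ncRNA gene, with the annotated ncRNA gene in capitals. They are, in order, chrX:11605883-11605983 (minus strand), chrX:6207807-6207907 (plus), chrII:14804545-14804645 (plus), chrIII:5031612-5031712 (minus), chrII:14496985-14497085 (plus), chrII:7200199-7200299 (plus) and chrII:14804744-14804844 (plus).
F52D10.7: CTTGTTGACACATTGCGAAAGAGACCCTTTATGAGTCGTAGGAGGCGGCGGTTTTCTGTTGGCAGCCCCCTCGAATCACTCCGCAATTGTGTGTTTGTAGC
C14F11.14: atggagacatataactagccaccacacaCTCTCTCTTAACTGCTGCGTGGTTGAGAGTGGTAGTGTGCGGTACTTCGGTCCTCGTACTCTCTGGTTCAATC
W01D2.7: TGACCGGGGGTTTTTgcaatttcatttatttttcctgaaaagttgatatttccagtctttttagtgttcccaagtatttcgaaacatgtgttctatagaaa
srpr-2.2: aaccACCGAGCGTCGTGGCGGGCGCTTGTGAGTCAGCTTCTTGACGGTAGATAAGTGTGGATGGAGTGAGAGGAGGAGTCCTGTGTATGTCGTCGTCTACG
K10H10.14: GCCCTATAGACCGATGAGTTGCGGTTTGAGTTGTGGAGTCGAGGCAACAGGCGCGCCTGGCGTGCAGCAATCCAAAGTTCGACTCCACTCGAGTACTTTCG
mrpr-1: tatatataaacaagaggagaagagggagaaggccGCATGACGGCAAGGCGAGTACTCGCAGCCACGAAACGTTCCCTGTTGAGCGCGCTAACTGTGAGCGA
W01D2.9: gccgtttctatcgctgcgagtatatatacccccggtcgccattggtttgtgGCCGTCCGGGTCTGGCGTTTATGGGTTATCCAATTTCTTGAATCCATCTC

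The share of members in the IDR list was 3.51% (44 of 1252, exact 95% interval 2.57 to 4.69%). For all pooled regions it was 1.65%. It was 1.03% for the 29134 pooled regions more than 500 bp from small RNA genes, members included, and 0.922% for the 27882 of these whose summit lay more than 100 bp from an ncRNA gene. Members made up 8.89% of the IDR list (exact 95% interval 6.53 to 11.8%). Among its 100 strongest peaks were 7 of the 44 (15.9%, exact 95% interval 6.64 to 30.1%). Of all 495 peaks, 100 are in that group by definition, a share inside this interval, so nothing is read from the count. Because some regions overlap, the 44 IDR members formed 41 loci. Of 7764 annotated ncRNA genes, 1468 (18.9%) lay within 100 bp of a member's summit and 59 (0.76%) within that distance of an IDR member's summit. These intervals cover counting error only and treat regions as independent.

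The authors' signal is given on a scale that is not stated, so it is used to order regions within 1 list. The IDR list equals the 495 strongest pooled regions, so the higher signal of IDR members follows from the choice. Their signal ran from 115.7 to 437.1 with a median of 147.8, beside 155.8 for the whole IDR list. The other members ran from 32.9 to 114.4 with a median of 48.1, beside 44.97 for all pooled regions. In −log10 q-values, IDR members ranged from 1.704 to 2.473 and the other members from 0.0372 to 1.64.

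**Figure D1:**
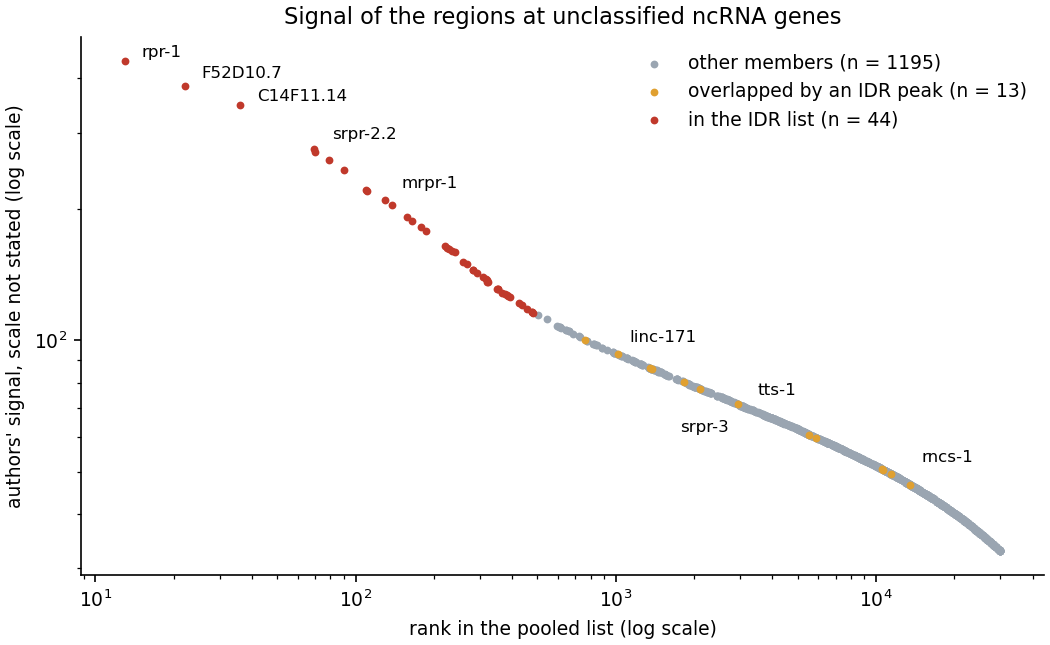
Authors' signal of each member region (vertical axis, scale not stated, log scale) against its rank in the pooled list of 30000 regions (horizontal axis, log scale), with selected ncRNA genes named. The 44 IDR members, in red, run from rpr-1 at 437.1 down to 115.7, and srpr-3, tts-1, linc-171 and rncs-1 lie among the other members in grey.

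The strongest member lay at rpr-1. Its region on chromosome I (13463809 to 13464066, ce11) had a signal of 437.1 and rank 13 in the pooled list. In replicate 1 its signal was 229.9 and in replicate 2 it was 211.4, and it ranked 16 in each. Its summit lay 13 bp inside the 5′ end of the 253-nt gene, which sits in an intron of ints-8, a gene for a subunit of the Integrator complex, on the opposite strand. A second region over the 3′ part of rpr-1 had a signal of 59.8 and was not in the IDR list. It overlapped the first, so it shares the first region's values in the replicates.

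The region at mrpr-1 (chromosome II, 7200021 to 7200476) had a signal of 209.6 and rank 130. Its signal was 107.6 in replicate 1 and 115.4 in replicate 2, with ranks of 141 and 97. The summit lay 16 bp inside the 5′ end of the 186-nt gene, so both RNase RNA genes had the summit just inside their start. The mrpr-1 summit was also 300 bp upstream of a start of pcrg-1 and 684 bp upstream of one of E04F6.6. The gene for the Y RNA, yrn-1, a small RNA bound by the Ro protein, had no region in the pooled list. Thus 2 of the 3 listed RNA polymerase III genes (rpr-1, mrpr-1 and yrn-1) had an IDR member, beside 0.76% of all ncRNA genes. The list leaves out the srpr genes and was set with earlier results of these data known, so nothing is read from this count.

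All 5 genes for the signal recognition particle RNA had a member region, beside 18.9% of all ncRNA genes. Of the 5, 4 had an IDR member, all on chromosome III, beside 0.76% of all ncRNA genes. At srpr-2.2 (5031434 to 5031889) the signal was 271.1 (rank 70), with 115.8 in replicate 1 (rank 109) and 153.2 in replicate 2 (rank 46). The summit lay 46 bp inside the 5′ end, and the gene sits in an intron of klp-6, a kinesin gene, on the opposite strand. This was the strongest srpr region and it was among the N strongest regions of both replicates, where N is the 495 of the IDR list.

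At srpr-1.1 the IDR member had a signal of 165.1 (rank 221), with 96.1 and 70.6 in replicates 1 and 2 (ranks 188 and 297). Its summit lay 22 bp past the 3′ end of the gene, in a non-coding exon of pals-26. A second srpr-1.1 region, with a signal of 86.4 (rank 1358), had its summit inside the gene, 118 bp from the 5′ end. It was not in the IDR list, and it overlapped the first and shares its replicate values. At srpr-2.1 the signal was 159.2 (rank 240), with 88.3 and 80.2 in the replicates (ranks 236 and 210). The srpr-2.1 summit, like that of the srpr-1.1 IDR member, was near the 3′ end, 284 bp from the start of a 299-nt gene. The srpr-1.2 gene, in an intron of the choline kinase gene ckb-2, had 2 overlapping IDR members with signals of 145.4 and 131.1, one 48 bp and the other 252 bp from the 5′ end. The strongest overlapping region had a signal of 61.0 in replicate 1 (rank 677) and 88.1 in replicate 2 (rank 178), so srpr-1.2 was within the N strongest of replicate 2 only.

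The fifth gene, srpr-3 on chromosome V, had a signal of 73.4 (rank 2643) and was outside the IDR list. Its signal was 37.6 in replicate 1 (rank 5166) and 39.6 in replicate 2 (rank 2398). The summit position, 52 bp from the 5′ end, was close to those of srpr-2.2 and of the first srpr-1.2 region. The gene sequences differ in how alike they are. The pair srpr-1.1 and srpr-1.2 were 98.3% identical over the whole gene and the pair srpr-2.1 and srpr-2.2 were 99% identical. Between these pairs identity was 94.0 to 94.3%, and srpr-3 was 81.7 to 82.5% identical to the others. How the authors treated reads that match more than 1 copy is not given in the sources used here, so the split of signal among the 4 genes on chromosome III is uncertain. The first 60 bases of each gene show this likeness, with the bases in capitals that differ by position from srpr-2.2 (chrIII:4379147-4379206 minus, chrIII:4369468-4369527 plus, chrIII:5211220-5211279 plus, chrIII:5031649-5031708 minus and chrV:9293573-9293632 minus, in the order listed).
srpr-1.1: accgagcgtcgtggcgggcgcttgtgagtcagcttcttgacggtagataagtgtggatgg
srpr-1.2: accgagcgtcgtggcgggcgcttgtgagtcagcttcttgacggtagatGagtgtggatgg
srpr-2.1: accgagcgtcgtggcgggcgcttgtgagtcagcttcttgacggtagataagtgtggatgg
srpr-2.2: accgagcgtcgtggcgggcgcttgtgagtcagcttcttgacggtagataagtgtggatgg
srpr-3: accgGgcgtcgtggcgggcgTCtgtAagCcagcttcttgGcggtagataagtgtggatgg
In this stretch srpr-3 differed from srpr-2.2 at 6 positions, srpr-1.2 at 1, and srpr-1.1 and srpr-2.1 at 0.

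Of the 14 ncRNA genes with a symbol of their own, 12 had a pooled region and 6 had one in the IDR list. The 6 were rpr-1, mrpr-1 and the srpr genes other than srpr-3. Over all ncRNA genes, 18.9% lay within 100 bp of a member's summit and 0.76% within that distance of an IDR member's. Because the split of signal among the srpr genes on chromosome III is uncertain, they may not be separate calls. The named long non-coding RNAs were not among the 6. The region at linc-171, a long intervening RNA on chromosome I, had a signal of 84.9 (rank 1455), with 51.6 in replicate 1 (rank 1280) and 28.7 in replicate 2 (rank 8724). At tts-1, a long RNA found on ribosomes, the signal was 70.2 (rank 3151), with 26.7 (rank 16119) and 46.1 (rank 1258) in replicates 1 and 2. Replicate order was opposite at these 2 genes, and neither was within the N strongest of either replicate.

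The long RNA rncs-1, known for a double-stranded stem that interferes with Dicer, had regions with signals of 46.2 and 35.5, one at each end of the gene. The region at tts-2 had a signal of 39.6 and that at lfor-2 one of 33.6, while lfor-1 had none. The values for rncs-1 and lfor-2 were close to the lowest signal of the pooled list, 32.9, or to its median. The annotation gives lep-5 another biotype, lincRNA, so its gene holds no member. Of the listed long ncRNAs (rncs-1, tts-1, lep-5 and linc-171), 0 had an IDR member, beside 0.76% of all ncRNA genes, so nothing is read from this count.

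Most of the strongest members lay at genes known only by a sequence name, as nearly all ncRNA genes are: 14 of 7764 (0.18%) have a symbol. On chromosome X, F52D10.7 had a signal of 383.7 (rank 22), and its summit was inside the 137-nt gene, 56 bp from its 5′ end. The neighbouring F52D10.9 had a signal of 260 (rank 79). Both summits lay upstream of ftt-2, a gene for a 14-3-3 protein, at 514 and 716 bp from its start. The regions overlap and share their replicate values, 224.9 in replicate 1 (rank 18) and 185.8 in replicate 2 (rank 22).

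C14F11.14, also on X, had a signal of 346.3 (rank 36), with 165.6 in replicate 1 (rank 51) and 185.1 in replicate 2 (rank 24). Its summit lay 22 bp inside the gene and 170 bp upstream of T13C5.6. On chromosome II, W01D2.7 had a signal of 275.2 (rank 69), with 148.8 in replicate 1 (rank 65) and 130.9 in replicate 2 (rank 68). W01D2.7 is 58 nt long and the summit lay 36 bp past its 3′ end, which is why most of its window above is in lower case. The overlapping region at W01D2.9 had a signal of 178.6 and its summit 1 bp before the gene, and W01D2.3 begins downstream of both.

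K10H10.14 on chromosome II had a signal of 245.5 (rank 90), with 106.6 in replicate 1 (rank 145) and 135.4 in replicate 2 (rank 62). On chromosome I, F57B10.17 had a signal of 220.9, with its summit 33 bp upstream of the trehalase gene tre-1 and 406 bp upstream of dad-1, which encodes a subunit of oligosaccharyltransferase. In the tubulin gene tba-7 on chromosome III, T28D6.13 had a signal of 220.3. F16A11.9, in an intron of ppfr-1, a gene for a regulatory subunit of protein phosphatase 4, had a signal of 204.1, and H37A05.5 on chromosome V had one of 191.6. Each of these 5 ranked within the N strongest regions of both replicates, with ranks from 62 to 260.

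At the lower end of the IDR members the signals came close to those of members just outside, without overlap, since the list equals the strongest pooled regions. The 5 weakest IDR members were F47B10.12 (120.8), K06G5.7 (118.2), Y47D3B.23 (116.2), C02F4.10 (116.1) and Y53F4B.54 (115.7). The 5 strongest members outside the list were F40F9.15 (114.4, rank 502), T22B2.12 (111.9), Y48B6A.23 (108.1), F09F3.17 (107.5) and ZK1010.11 (107.5). At Y53F4B.54 the region ranked 473 in replicate 1 and 2996 in replicate 2, and at F40F9.15 it ranked 805 and 454, so ranks in single replicates overlapped across the boundary.

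Replicates were compared by rank, since signals of separate lists have no shared scale. Of the 44 IDR members, 36 (81.8%) overlapped one of the N strongest regions of replicate 1, 34 (77.3%) one of replicate 2, 28 (63.6%, exact 95% interval 47.8 to 77.6%) one of each, and 2 one of neither. For the whole IDR list 305 of 495 (61.6%) did so in both, close to the share of the members. Of the 1195 other members, 9 (0.753%) overlapped one of the N strongest of replicate 1 and 10 (0.837%) one of replicate 2. The counts for single replicates were not made over all pooled regions or all IDR peaks, so nothing particular to members is read from them. The median rank of IDR members was 245.5 in replicate 1 (range 16 to 1441) and 262.5 in replicate 2 (range 16 to 2996). The IDR filter used both replicate lists, so these counts are a description.

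Some members were within the N strongest of 1 replicate only. F46F2.12, in an intron of the casein kinase gene kin-20, ranked 168 in replicate 1 and 1456 in replicate 2. W06B11.9, 344 bp upstream of the Pumilio-family gene puf-9, ranked 241 and 919. ZK1010.11, outside the IDR list, ranked 256 and 14942. In the other direction, T04C10.8, upstream of the epsin gene epn-1, ranked 517 in replicate 1, just past N, and 217 in replicate 2. The srpr-1.2 regions ranked 677 and 178. These are the leading members of each direction, and a difference between 2 libraries has no replicate of its own.

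**Figure D2:**
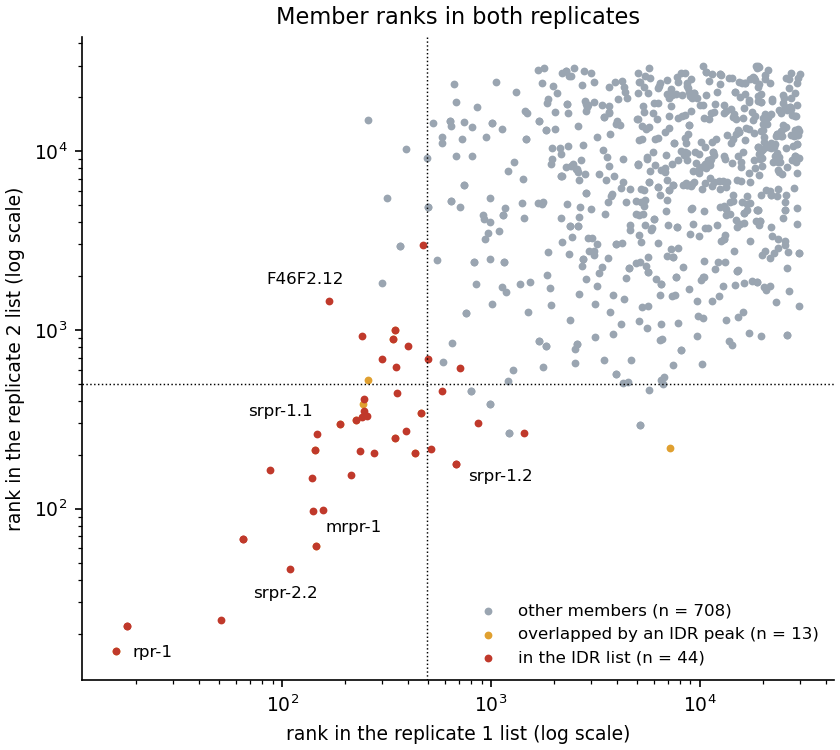
Rank of each member in the replicate 1 list (horizontal axis) and in the replicate 2 list (vertical axis), both on log scales, for the 765 members with an overlapping region in both lists; dotted lines mark rank 495. The 28 IDR members in the lower left corner, rpr-1 first, are within the N strongest of both replicates, while F46F2.12 and srpr-1.2 are so in 1 replicate only.

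Around the gene, IDR summits lay mostly at the start or in the body. The median summit position was 47 bp downstream of the ncRNA gene's 5′ end for IDR members (middle 50% from 14.8 to 93 bp) and 62 bp for the other members (from −2 to 152 bp). Of the 44, 27 (61.4%) had the summit inside the ncRNA gene, against 622 of 1195 other members (52.1%), a difference that did not pass the test (two-sided Fisher's exact test, Benjamini-Hochberg adjusted p = 0.425 over 13 site properties). It passed when summits within 200 bp of an ncRNA gene were counted (57.45% against 38.25%, adjusted p = 0.031, exact test). That wider reach adds only summits outside the gene. Within 50 bp the direction was reversed (64.3% against 65.8%, adjusted p = 0.869, exact test). With the 100 bp of the rule, summits upstream of the 5′ end made up 18.2% and 25.9% (adjusted p = 0.425, same exact test). The genes were short in both sets, with a median length of 149.5 nt at IDR members, 146 nt at the other members and 140 nt over all ncRNA genes. Genes of 200 nt or less were nearest to 65.9% and 71.4% (adjusted p = 0.539, same exact test).

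Each test here compares regions of the same pooled libraries with one another, so its p-value says nothing of variation between embryos. Of the 13 properties tested, 2 passed an adjusted p of 0.05, GC content at the summit and location on chromosome III. The 13 properties were not counted over the whole IDR list or all pooled regions. Whether a difference is particular to regions at ncRNA genes was therefore not tested. A GC content of 45% or more in the window of 50 bp to each side of the summit was found at 33 of 44 IDR members (75%, exact 95% interval 59.7 to 86.8%) and at 559 of 1195 others (46.8%, 43.9 to 49.7%), with an odds ratio of 3.41 and an adjusted p of 0.00395 by Fisher's exact test. The median GC content was 51.5% and 43.6%. H37A05.5 had the highest value of the IDR members, 67.3%, and F08G2.13 the lowest, 23.8%. The 44 members next below the IDR members in signal, a comparison chosen after the data were seen, had the same share, 75%.

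**Figure D3:**
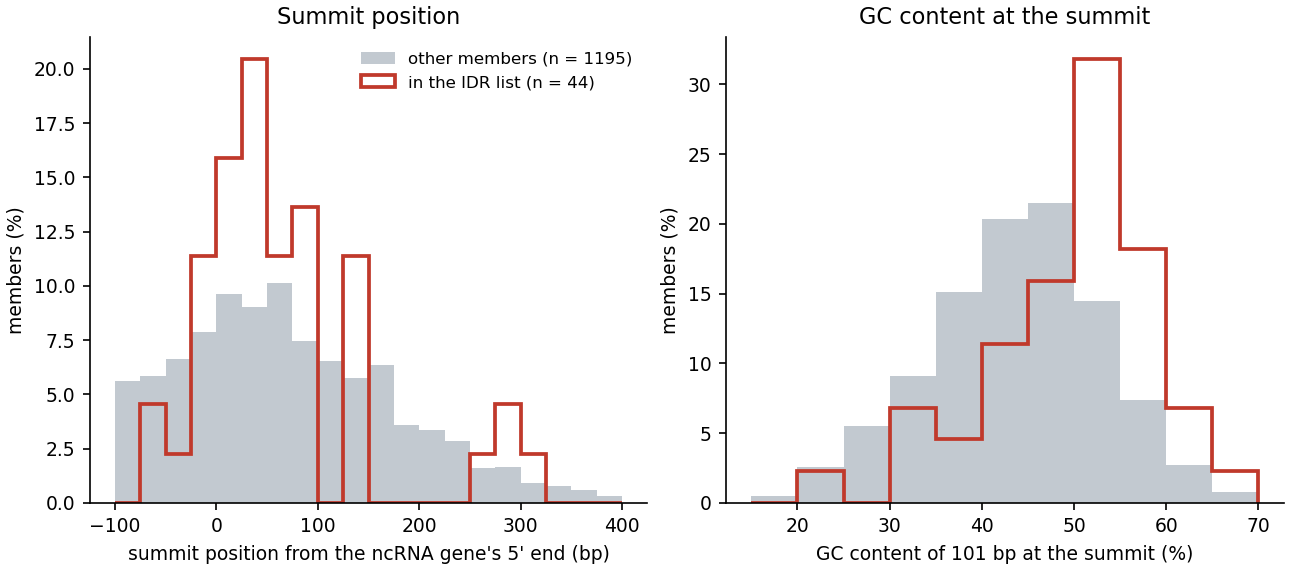
Left, summit position from the 5′ end of the nearest ncRNA gene in bp, shown from −100 to 400 (42 other members lie beyond); right, GC content within 50 bp of the summit in percent; both as the percent of 44 IDR members (red outline) and of 1195 other members (grey). The median summit position was 47 bp for IDR members and 62 bp for the other members, and the median GC content 51.5% and 43.6%.

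Chromosome III held 12 of the 44 IDR members (27.3%, exact 95% interval 14.96 to 42.8%) and 124 of the other members (10.4%, 8.71 to 12.3%), with an odds ratio of 3.24 and an adjusted p of 0.0117 by Fisher's exact test. Of the members on each chromosome, 8.51% were in the IDR list on III, 4.62% on I, 3.70% on II, 3.21% on X, 1.91% on IV and 1.30% on V. Of the 7764 annotated ncRNA genes, 764 were on III. The 12 IDR members on III include 5 srpr regions. Without rpr-1, mrpr-1 and the srpr genes, a comparison added after the data were seen, 7 of 37 IDR members (18.9%) were on III and the call was lost (exact test, adjusted p = 0.225). It was also lost in each replicate alone (adjusted p = 0.174 from the replicate 2 list and 0.0909 from the replicate 1 list, exact test). Chromosome X held 29.5% of the IDR members and 32.6% of the others (adjusted p = 0.745, exact test).

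Relative to protein-coding genes, 32 IDR members (72.7%) had a summit outside them, 11 (25%) in an intron and 1 in an exon outside the coding part, while coding exons held 0 of 44, which allows a share of up to 8.04%. The other members were outside protein-coding genes in 58.8% of cases (adjusted p = 0.248), in introns in 34.6% (adjusted p = 0.425) and in coding exons in 3.26% (adjusted p = 0.515), all by the same exact test. Without rpr-1, mrpr-1 and the srpr genes, the share outside protein-coding genes passed the test (81.1% against 58.8%, adjusted p = 0.0267, exact test). That comparison was added after the data were seen. The IDR members it leaves out all lay in protein-coding genes, except those at mrpr-1 and srpr-2.1. Leaving them out raises the share of IDR members by choice, so nothing is read from this call. The ncRNA gene ran antisense to a protein-coding gene at 18.2% of IDR members and 30.04% of others (adjusted p = 0.248, exact test). Having 2 or more ncRNA genes within reach was about as frequent in both, 29.5% and 25.3% (adjusted p = 0.539, exact test). Another non-coding biotype lay within 100 bp of 4.55% and 2.26% (adjusted p = 0.425, exact test).

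A promoter window, from 1000 bp upstream to 200 bp downstream of a protein-coding transcript start, held 23 of 44 IDR summits (52.3%) and 420 of 1195 others (35.1%). Fisher's exact test gave p = 0.0245 and an adjusted p of 0.106. The call was made when summits within 200 bp of an ncRNA gene were counted (53.2% against 33.5%, adjusted p = 0.031, exact test). It was also made when the rpr-1, mrpr-1 and srpr regions were left out (59.5% against 35.2%, adjusted p = 0.0267, exact test). That exclusion was chosen after the data were seen. The IDR members it leaves out were all outside such windows, except the one at mrpr-1, so nothing is read from this second call. The 23 windows belonged to 24 genes. Among them were the ribosomal protein genes rps-1 (287 bp from the summit at F56F3.11) and rpl-11.2 (448 bp from that at AH9.7). The heat shock cognate gene hsp-1 lay 410 bp from the summit at F26D10.23. The citric acid cycle genes dlst-1 and suca-1 lay 117 and 244 bp from the summits at W02F12.11 and F47B10.12. For all 23, the summit was upstream of the start, so an ncRNA gene and a promoter shared the position and cannot be told apart as the site.

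**Figure D4:**
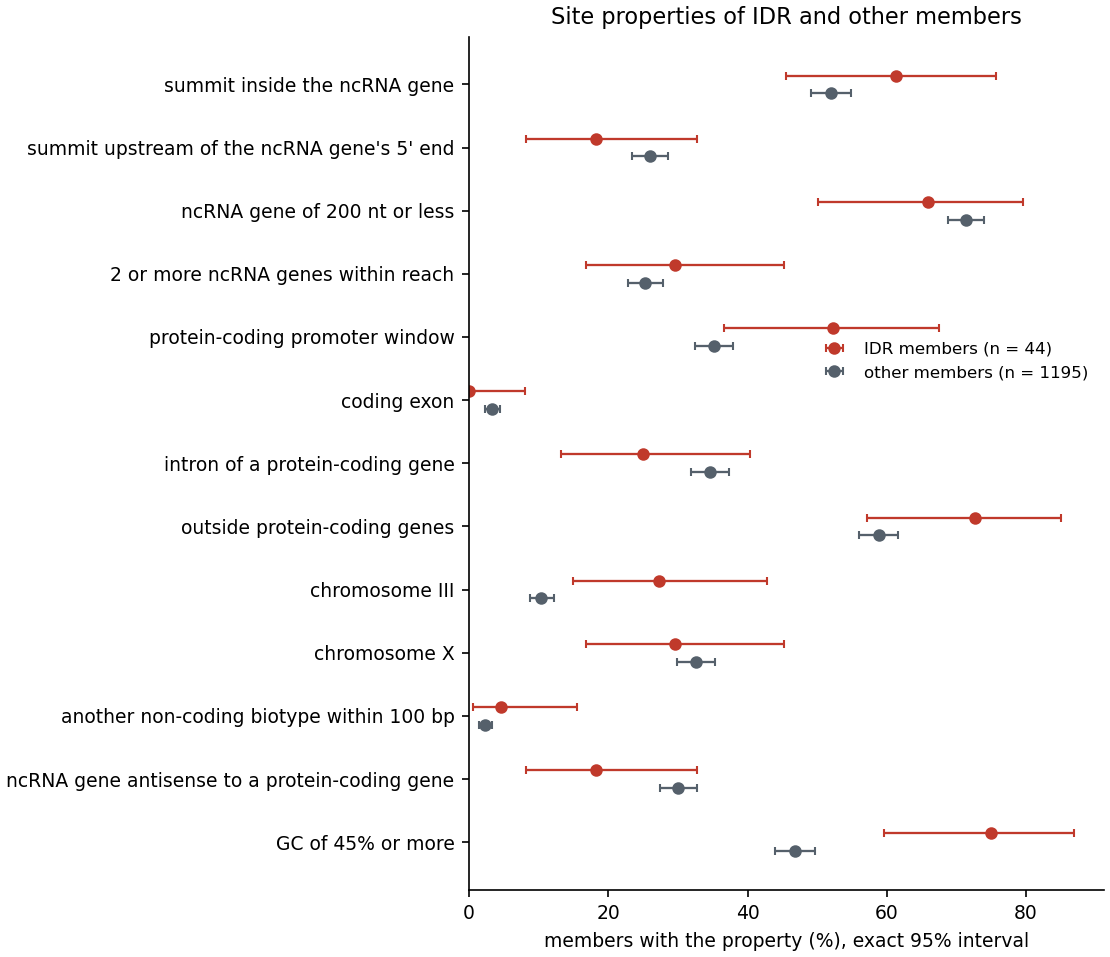
Percent of IDR members (red, n = 44) and of other members (dark grey, n = 1195) with each of 13 site properties; points are shares and bars exact 95% binomial intervals. The intervals are apart for GC content (75% and 46.8%) and for chromosome III (27.3% and 10.4%), and they overlap for the other 11 properties.

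Short motifs were counted on both strands in the same window around the summit. The Snail E-box CAGGTG was found at 0 of 44 IDR members, 1.84% of the other members and 2.65% of all pooled regions (Fisher's exact test between the first and the second, adjusted p = 1 over 8 motifs). GTTCGA, the core of the B box inside tRNA genes, was found at 1 IDR member, K10H10.14, whose window above holds it, and at 3.18% of others and 3.57% of all pooled regions (adjusted p = 1, exact test). The hexamers CACTTG and ACCACT, known from earlier results of these data, were each at 4 of 44 IDR members (9.09%), beside 4.60% and 4.44% of others and 3.98% and 3.64% of all pooled regions (adjusted p = 0.306 for each, exact test). CGCGCC, from the same source, was at 6.82%, 4.02% and 2.84% (adjusted p = 0.676, exact test), and TATAAA at 6.82%, 6.44% and 9.81% (adjusted p = 1, exact test). GAGAGA was at 11 of 44 (25%), 14.1% and 6.99% (p = 0.04995, adjusted p = 0.2, exact test). A missing match says only that these letters are not in this window.

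One motif of the 8 passed, in the direction of fewer matches. TTTTTT, or its complement, was at 2 of 44 IDR members (4.55%, exact 95% interval 0.555 to 15.5%), 355 of 1195 others (29.7%) and 42.4% of all pooled regions, with an odds ratio of 0.113 and an adjusted p of 5.08e-04 by Fisher's exact test. In windows of the same width centred 400 bp to each side of the same 44 summits, 16 and 17 held it. The call was lost with the replicate 2 list alone (18.4% against 32.3%, adjusted p = 0.311, exact test) and without members in a promoter window (adjusted p = 0.101, exact test), where the shares stayed about as far apart (4.76% of 21 IDR members against 29.2%). GC content differed between the same sets, and its part in this difference was not tested.

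The 3′ ends of the genes were read after these values had been seen, so what follows is a description without a test. TTTT within the last 10 bases of the gene or the 10 beyond it, on the coding strand, was present at all 7 of rpr-1, mrpr-1 and the srpr genes. It was present at 15 of 43 genes nearest to IDR members (34.9%, exact 95% interval 21.0 to 50.9%), these known genes included. Without them it was present at 9 of 37 (24.3%). For the genes nearest to the other members it was 22.2%, and for all 7764 ncRNA genes 21.5%. Those without it included F52D10.7, C14F11.14 and F57B10.17, among the strongest members.

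W01D2.9 and F08G2.13 share letters with yrn-1. After a broader search for TTGAC and TTTT near the 3′ end had been looked at, all ncRNA genes were searched for GTCCG in their first 30 bases and TTGAC in their last 25. This found 14 genes, of which 11 had TTTT at the 3′ end, 5 had a pooled region and 2 had an IDR member. The 2 are W01D2.9 and F08G2.13, with which the search began, so that count was fixed by the choice. The broader search used TTTT, which shaped the TTTT count too, so nothing is read from these counts. Over all ncRNA genes, TTTT was present at 21.5%, 18.9% lay within 100 bp of a member's summit and 0.76% within that distance of an IDR member's. The signals of these 5 were 178.6 at W01D2.9, 162 at F08G2.13, 77.7 at W01D2.8, 41.5 at M163.15 and 34.9 at C18C4.17. The strongest of them was well below rpr-1 and the weakest close to the lowest signal of the pooled list. M163.15 lies within 500 bp of a small RNA gene and is not itself a member, whereas the 18.9% counts members' summits only. Whole genes are shown for the 2 with an IDR member, for W01D2.8, and for yrn-1, with GTCCG and TTGAC in capitals (chrII:14804795-14804876 plus, chrII:13834449-13834523 minus, chrII:14801350-14801427 minus and chrIV:7499508-7499612 plus).
W01D2.9: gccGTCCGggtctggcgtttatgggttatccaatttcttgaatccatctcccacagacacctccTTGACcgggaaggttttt
F08G2.13: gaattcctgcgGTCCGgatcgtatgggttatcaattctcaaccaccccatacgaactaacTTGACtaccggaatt
W01D2.8: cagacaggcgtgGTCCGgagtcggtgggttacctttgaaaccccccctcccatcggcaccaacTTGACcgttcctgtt
yrn-1: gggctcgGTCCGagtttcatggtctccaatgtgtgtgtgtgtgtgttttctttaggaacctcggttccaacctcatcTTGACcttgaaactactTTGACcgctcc
At F08G2.13 the summit lay 19 bp past the 3′ end of the gene, with ranks of 274 and 204 in replicates 1 and 2.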

How the data were processed

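ChIP-seq of 2 biological replicates of 1 group was analysed, from region lists that the authors deposited on ce11. Per the labels the replicates are biological, and nothing says more about how separate the cultures were. Per the deposited manifests, each replicate list goes back to its own alignment with a control, the pooled list to both, and the IDR list to the other lists. The sources used here name neither aligner nor peak caller nor IDR cut-off. In each list, the seventh column holds the signal and the ninth the −log10 q-value of a region, both as deposited by the authors. The pooled list held 30000 regions of mostly 456 bp, so many candidates have high q-values. The files hold no read counts, so depth is unknown; the control library was not analysed here, and the ce10 lists were not used here.

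Summits were set against genes of the Ensembl release 115 annotation of WBcel235, the assembly of ce11, and against its RefSeq sequence. Printed coordinates count from 1. A region's value in a replicate is that of the strongest region overlapping it by at least 1 bp in that replicate's list, so overlapping regions can share it. IDR members were compared with members that no IDR peak overlaps, by two-sided Fisher's exact test, with Benjamini-Hochberg adjustment over 13 properties or 8 motifs and a threshold of 0.05. Intervals are exact (Clopper-Pearson) 95% binomial intervals. Python 3.11.15, scipy 1.17.1, statsmodels 0.14.6, pandas 2.3.3 and Biopython 1.88 were used, the last for global alignment of the srpr genes, and the tests were tested on simulated data.

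The members and lists were chosen with earlier results of these data known. Genes named are rpr-1, mrpr-1, yrn-1, rncs-1, tts-1 and lep-5, the ncRNA and protein-coding genes at the 12 strongest IDR members, the 5 weakest IDR members, the 5 strongest outside the list, ncRNA genes with a symbol, and up to 3 members per direction that are strong in 1 replicate only. Other genes were named after their values were seen. Alternatives changed the distance to ncRNA and small RNA genes, the number of strong regions, the replicate used, the set of other members, and the promoter and motif windows.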

Additional observations from a re-analysis of the deposited data

How the results depend on the processing

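The share of members among the strong regions was 1.60% (20 of 1252) with the N/2 strongest pooled regions and 5.91% (74 of 1252) with the 2N strongest, since fewer or more regions then count. The other settings left it within its interval. Of the properties past the threshold, 2 at first, there were 4 within 200 bp of an ncRNA gene (summits inside the gene and promoter windows added), 3 without rpr-1, mrpr-1 and srpr genes, 0 with N/2, 1 with 2N, 1 in each replicate alone and 0 against the next 44 members (Fisher's exact test; 1 of 13 had an unadjusted p under 0.05 with N/2 and 2 against the next members). Of the motifs, 1 at first, there were 0 with N/2, 0 in the replicate 2 list, 2 in the replicate 1 list, 2 within 100 bp of the summit (CGCGCC added in both), 0 without promoter members and 0 against the next members (of 8, 2, 1, 1 and 0 had an unadjusted exact p under 0.05 in the settings with 0, in this order). The chromosome III, GC and TTTTTT calls were lost with N/2 (adjusted p = 0.667, 0.445 and 0.158, exact test), where 20 regions gave 20% against 11.08%, 70% against 47.4% and 5% against 29.2%, and chromosome III also with 2N (adjusted p = 0.15, exact test), and GC, chromosome III and TTTTTT against the next members (adjusted p = 1, 0.0904 and 0.714, exact test), where the shares were 75% in both sets, 27.3% against 4.55% and 4.55% against 18.2%, so for chromosome III the difference was wider among fewer regions. The causes were not tested. Properties not past the threshold changed direction in some settings, as differences in percentage points (IDR members minus others). Summits inside the gene gave −1.53 within 50 bp and −9.09 against the next members. Upstream summits ranged from −16.3 to 2.78 in single replicates. Genes of 200 nt or less gave 1.87 with summits inside the gene and 4.24 without rpr-1, mrpr-1 and srpr genes. Having 2 or more ncRNA genes gave −0.591 with N/2 and −9.09 against the next members. Chromosome X gave 0.110 with 2N and 2.56 without those genes, and antisense genes 0.00703 with 2N. GTTCGA gave 0.488 inside the gene, 1.90 with N/2 and 2.27 against the next members, GAGAGA −4.51 with N/2, and ACCACT −1.74 without those genes. TATAAA gave −1.12 within 200 bp and inside the gene, −1.24 within 25 bp of the summit, −1.05 without promoter members and −3.75 without those genes. Replicate agreement was 22 of 44 with summits within 100 bp, against 28. No paired analysis was possible because there is 1 group. The comparisons with the next members and without the named genes, and the merging of overlapping regions, which changed no call, were chosen after seeing the data. Depth is unknown and limits every list.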

Other observations

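Repeats of 5 CA units, on either strand within 50 bp of the summit, were counted after the data had been seen and after a wider window had been looked at, so no test is given. They were present at 6 of 44 IDR members (13.6%, exact 95% interval 5.17 to 27.3%), at 2 of the 44 members next below in signal (4.55%) and at 30 of 1195 other members (2.51%). Of all pooled regions 0.71% held one, and of the IDR list 2.63%. The 6 members were F16A11.9 (signal 204.1), Y47G6A.35 (181.9), Y55B1BR.7 (151.4), T13H2.9 (136.5), F46F2.12 (136.5) and K06G5.7 (118.2), of which the first 2 lie on chromosome I. F46F2.12 is also one of the members within the N strongest of replicate 1 only, at ranks 168 and 1456. How reads in repeats were placed is not stated, and its part in these signals was not tested. Repeats of 5 GA units were at 1 of 44 IDR members and 1.59% of the other members.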
